A study of Mus musculus with 29 samples.

Results

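Potassium channel genes were taken as the 88 mouse genes whose symbol is Kcn followed by a family letter and a number, out of 30142 genes measured with 1 symbol. The choice used the symbol alone and no measured value, and each gene had 1 transcript cluster on the array. By protein type the 88 genes comprised 36 voltage-gated pore subunits, 15 inward rectifiers and 14 tandem-pore (K2P) leak channels. The rest were 15 auxiliary subunits and 8 genes of the calcium- or sodium-activated channel families, where Kcnu1 was placed by family. A gene was tested where at least 2 arrays placed it over their own median cluster, which held for 64 of the 88 and for 22063 of all genes. The other 24 were over it in at most 1 array. Among them was Kcnj6 (the GIRK2 subunit of midbrain dopamine neurons), which lay between 2.8 and 3.17 on the log2 scale in the 29 arrays.

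Potassium channels let potassium ions leave the cell and so set the resting potential, end each action potential and limit repetitive firing. Voltage-gated Kv subunits assemble in groups of the same family and are modified by auxiliary subunits, such as the KChIP proteins that bind the Kv4 subunits of the transient A-type current. Inward rectifiers (Kir) hold glial and muscle cells near the potassium equilibrium potential, and Kir4.1 lets astrocytes take up potassium released by neurons. Calcium-activated SK and BK channels couple calcium entry to a rise in potassium current, and K2P channels carry leak currents in dividing as well as excitable cells. Precursor cells, glia and mature neurons are known to carry different sets of these genes.

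The study followed mouse embryonic stem cells labelled BERKO, the name for loss of estrogen receptor beta (ERβ, gene Esr2), and wild-type (WT) stem cells through neural differentiation on Clariom D arrays. All cultures were free of feeder cells. The stages were stem cells kept with LIF (mESC), neural precursors in N2, FGFb and laminin (NPC), midbrain precursors with FGF8b, Shh and ascorbic acid added to N2 and FGFb (mDPC), and cells held in N2 with ascorbic acid, labelled as midbrain neurons (MN). The mESC stage had 2 BERKO and 2 WT arrays without treatment. At NPC and mDPC there were 2 BERKO and 2 WT arrays with LY3201, an agonist selective for ERβ at 0.5 nM for 4 days, and 2 BERKO and 2 WT arrays with DMSO vehicle, called untreated here. MN had 2 BERKO and 2 WT arrays with LY3201 at the same dose, and 3 BERKO and 2 WT arrays without it; the length of treatment there is not given. The labels do not say how many clones or embryos the BERKO and WT lines came from, so differences between the labels are differences between the lines used.

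Values are the authors' log2 signals, 1 per gene and array, and array number limits the precision. A change is a difference of group means ± its standard error (SE) from 1 limma model over all 29 arrays, and "called" means a Benjamini-Hochberg adjusted p under 0.05 over the 22063 genes tested. Every adjusted p below is from that limma model. The 95th percentile of 5222 negative control probe sets, 6.63 to 7.66 by array, served as a background line: 16 of the 88 genes exceeded it in at least 1 array and none of the 88 did so in all arrays. A level below the line is given as measured, and a difference between such levels is one of measured signal. Levels of different genes come from different probes and are not compared.

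Esr2, the gene named by the BERKO label, lay between 3.8 and 4.46 in the 15 BERKO arrays and between 3.21 and 3.47 in the 14 WT arrays. All of these values lay under the background line, so they are measured signal and do not show expression of the gene. Their direction goes against the label. Which part of the gene was altered is not given in the sources used here, so directions below are those of the labels. Pluripotency markers averaged 3.87 to 4.41 in all arrays after the stem cell stage, against 13.17 to 13.26 in the mESC arrays. Dopaminergic neuron markers averaged 4.08 to 4.46 in every array, with Th between 3.19 and 3.57 throughout, so the MN label names a stage and not a measured content of midbrain neurons. Astrocyte markers averaged 10.05 to 10.54 in the MN arrays. The titles of the 2 mESC BERKO arrays share a sample number, as do those of the 2 LY3201-treated NPC WT arrays, and each pair may be 1 culture. The design text calls the arrays biological replicates without saying what was separate. The SEs and p-values rest on 1 spread per gene between arrays of a group, pooled over all 14 groups. They do not measure the spread in the compared groups alone. That spread was wider for some genes, such as Kcnd2 and Kcnj8 in untreated MN WT, where SEs and p-values may be too small. In such bulk samples, a change in the share of a cell type and a change in RNA per cell cannot be told apart.

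**Figure D1:**
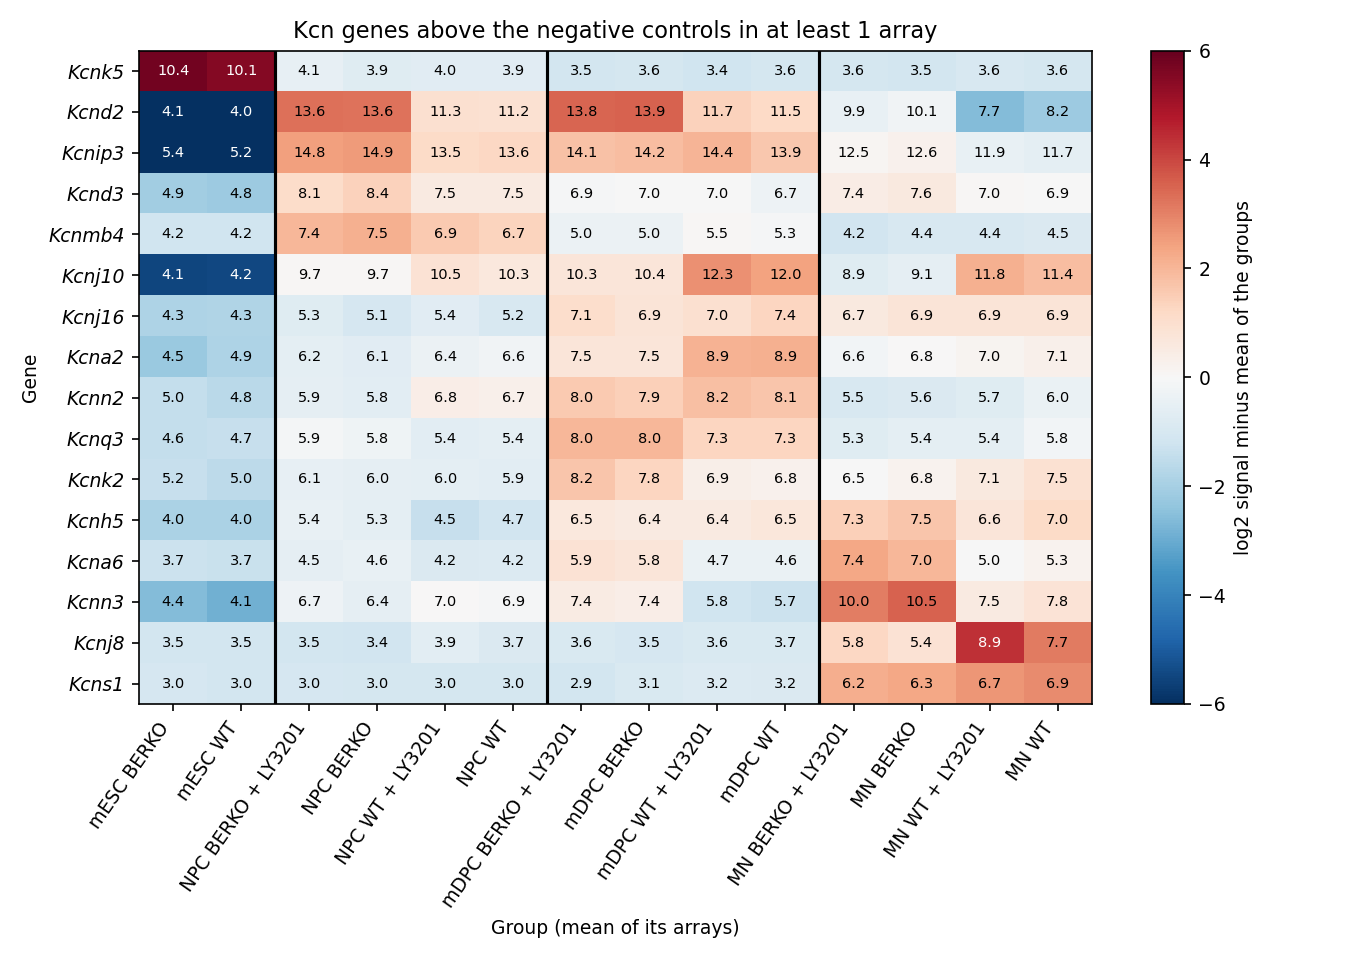
Mean log2 signal (numbers) of the 16 potassium channel genes that exceeded the negative controls in at least 1 array, in the 14 groups, coloured by the difference from the gene's mean over groups. Kcnk5 stands high in mESC and Kcns1 and Kcnj8 stand high in MN, while most genes are lowest in mESC.

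Stem cells carried 1 potassium channel gene above the background line, Kcnk5, which encodes the acid-sensitive leak channel TASK-2. Kcnk5 lay between 3.41 and 4.2 in the 25 arrays after the stem cell stage, against 10.1 and 10.7 in mESC BERKO arrays and 9.93 and 10.32 in mESC WT arrays. The later arrays did not overlap with the stem cell arrays. Its fall from mESC to NPC was -6.49 ± 0.16 in BERKO and -6.18 ± 0.16 in WT (adjusted p = 8.14e-18 and 1.74e-17), the largest fall among the members tested in that step in either genotype. Since NPC values lay under the background line, NPC levels were at least 8.34-fold lower than mESC levels in BERKO and at least 6.36-fold lower in WT.

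Kcnip3, Kcnd2 and Kcnj10 had the largest rises of the same step in both genotypes. Kcnip3 encodes KChIP3, a calcium sensor that binds Kv4 channels and is also described as the transcriptional regulator DREAM. It measured 14.82 and 14.97 in NPC BERKO and 13.53 and 13.64 in NPC WT, against 5.42 and 5.44 in mESC BERKO and 5.17 and 5.28 in mESC WT. Kcnd2, the Kv4.2 pore subunit of the A-type current, measured 13.71 and 13.48 in NPC BERKO and 11.25 and 11.26 in NPC WT, against 4.14 and 4.01 in mESC BERKO and 3.96 and 4.04 in mESC WT. Both Kcnip3 and Kcnd2 were over the background line in all 25 later arrays and under it in all mESC arrays. The rise of Kcnd2 was 9.52 ± 0.21 in BERKO and 7.25 ± 0.21 in WT (adjusted p = 1.57e-18 and 1.08e-16), so that NPC levels were at least 68.2-fold higher than mESC levels in BERKO and at least 13.4-fold higher in WT. Kcnip3 rose by 9.47 ± 0.15 in BERKO and 8.36 ± 0.15 in WT (adjusted p = 8.75e-21 and 5.88e-20). Kcnj10, which encodes the glial rectifier Kir4.1, measured 9.91 and 9.44 in NPC BERKO and 10.39 and 10.12 in NPC WT, against 4.5 and 3.75 in mESC BERKO and 3.83 and 4.48 in mESC WT. It rose by 5.55 ± 0.23 in BERKO and 6.10 ± 0.23 in WT (adjusted p = 3.6e-14 and 7.9e-15). Kcnd3, the Kv4.3 subunit, Kcnn3, the SK3 channel, and Kcnmb4, a neuronal BK beta subunit, rose in the same step by 3.49 ± 0.14, 2.06 ± 0.20 and 3.37 ± 0.10 in BERKO and by 2.70 ± 0.14, 2.79 ± 0.20 and 2.54 ± 0.10 in WT.

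The promoters of 4 of the genes with the widest range are shown, 250 bases before to 50 bases after the annotated start, from RefSeq on GRCm38.p6, with CG dinucleotides in capitals. Kcnd2 (chr6:21215096-21215395, plus strand) and Kcnj10 (chr1:172340960-172341259, plus strand) rose from mESC to NPC and later differed between BERKO and WT in opposite directions. Kcnn3 (chr3:89519914-89520213, plus strand) differed at mDPC and MN, and Kcnk5 (chr14:20181733-20182032, minus strand) fell at the first step.
Kcnd2: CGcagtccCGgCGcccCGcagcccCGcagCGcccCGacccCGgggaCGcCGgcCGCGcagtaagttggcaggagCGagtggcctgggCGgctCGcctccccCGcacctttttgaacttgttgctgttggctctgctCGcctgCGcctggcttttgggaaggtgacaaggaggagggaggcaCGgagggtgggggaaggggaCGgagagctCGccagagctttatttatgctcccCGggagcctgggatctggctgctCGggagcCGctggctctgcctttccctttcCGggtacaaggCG
Kcnj10: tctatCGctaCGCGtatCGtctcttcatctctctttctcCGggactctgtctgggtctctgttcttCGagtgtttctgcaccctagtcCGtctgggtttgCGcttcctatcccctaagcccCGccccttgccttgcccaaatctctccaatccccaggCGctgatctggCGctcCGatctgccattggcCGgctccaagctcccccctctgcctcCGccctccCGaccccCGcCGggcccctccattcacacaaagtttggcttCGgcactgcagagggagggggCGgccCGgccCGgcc
Kcnn3: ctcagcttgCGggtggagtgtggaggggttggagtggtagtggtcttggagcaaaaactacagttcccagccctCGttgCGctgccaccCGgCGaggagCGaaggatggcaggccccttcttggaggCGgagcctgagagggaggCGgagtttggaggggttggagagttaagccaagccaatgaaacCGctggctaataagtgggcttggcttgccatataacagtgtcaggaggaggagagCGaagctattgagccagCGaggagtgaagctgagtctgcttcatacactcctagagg
Kcnk5: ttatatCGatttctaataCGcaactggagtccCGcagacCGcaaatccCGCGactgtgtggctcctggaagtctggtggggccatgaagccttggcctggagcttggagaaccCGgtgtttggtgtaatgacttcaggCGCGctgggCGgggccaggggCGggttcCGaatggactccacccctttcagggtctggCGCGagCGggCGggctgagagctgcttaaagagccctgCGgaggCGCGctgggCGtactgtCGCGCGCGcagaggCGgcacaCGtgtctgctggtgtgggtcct
These windows held 26, 21, 11 and 26 CG dinucleotides, in the order shown. Promoters were found for 67 of the 88 genes, 92 distinct windows in all, with a median of 9 CG dinucleotides against 7 in 32544 distinct promoters of all genes. An estrogen response element, spelled as GGTCA followed by TGACC with 3 bases of any kind between them, was in 0 of the 92 windows and in 23 of all promoters (0.0707%). The single element GGTCA, on either strand and counted also inside the longer one, was in 26 of the 92 windows (28.3%) and in 40.5% of all promoters. A match describes the letters of the window and not a bound site.

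In the step from mESC to NPC, 21 potassium channel genes rose and 10 fell in BERKO, and 24 rose and 7 fell in WT, of 64 tested. Of all genes tested, 27.7% rose and 35.9% fell in BERKO, and 27.9% rose and 35% fell in WT. The members' median change was 0.02 in BERKO and 0.13 in WT, beside -0.1 and -0.04 over all genes. In both genotypes 20 members rose, 7 fell and none went opposite ways. Shared counts were not computed over all genes, here or at the later steps, so they are not read as particular to potassium channel genes. Of the neuronal channel genes, Kcna2 (Kv1.2) rose by 1.55 ± 0.14 in BERKO and 1.67 ± 0.14 in WT, and Kcnq3 (Kv7.3, a subunit of the M-current) by 1.21 ± 0.18 and 0.78 ± 0.18, with both genes under the background line in NPC. Other falls were small, such as Kcnk6, a K2P channel, by -0.89 in BERKO and -0.78 in WT, and Kcnd1 (Kv4.1, the remaining Kv4 pore subunit) by -0.69 ± 0.09 and -0.99 ± 0.09. The KChIP genes Kcnip1 and Kcnip2 were not called in this step (0.03 ± 0.12 and -0.02 ± 0.08 in BERKO, -0.07 ± 0.12 and -0.03 ± 0.08 in WT). Rest, the repressor of many neuronal channel genes, measured 7.99 to 8.53 in all later arrays, against 13.14 and 13.06 in mESC BERKO and 13.36 and 13.18 in mESC WT.

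**Figure D2:**
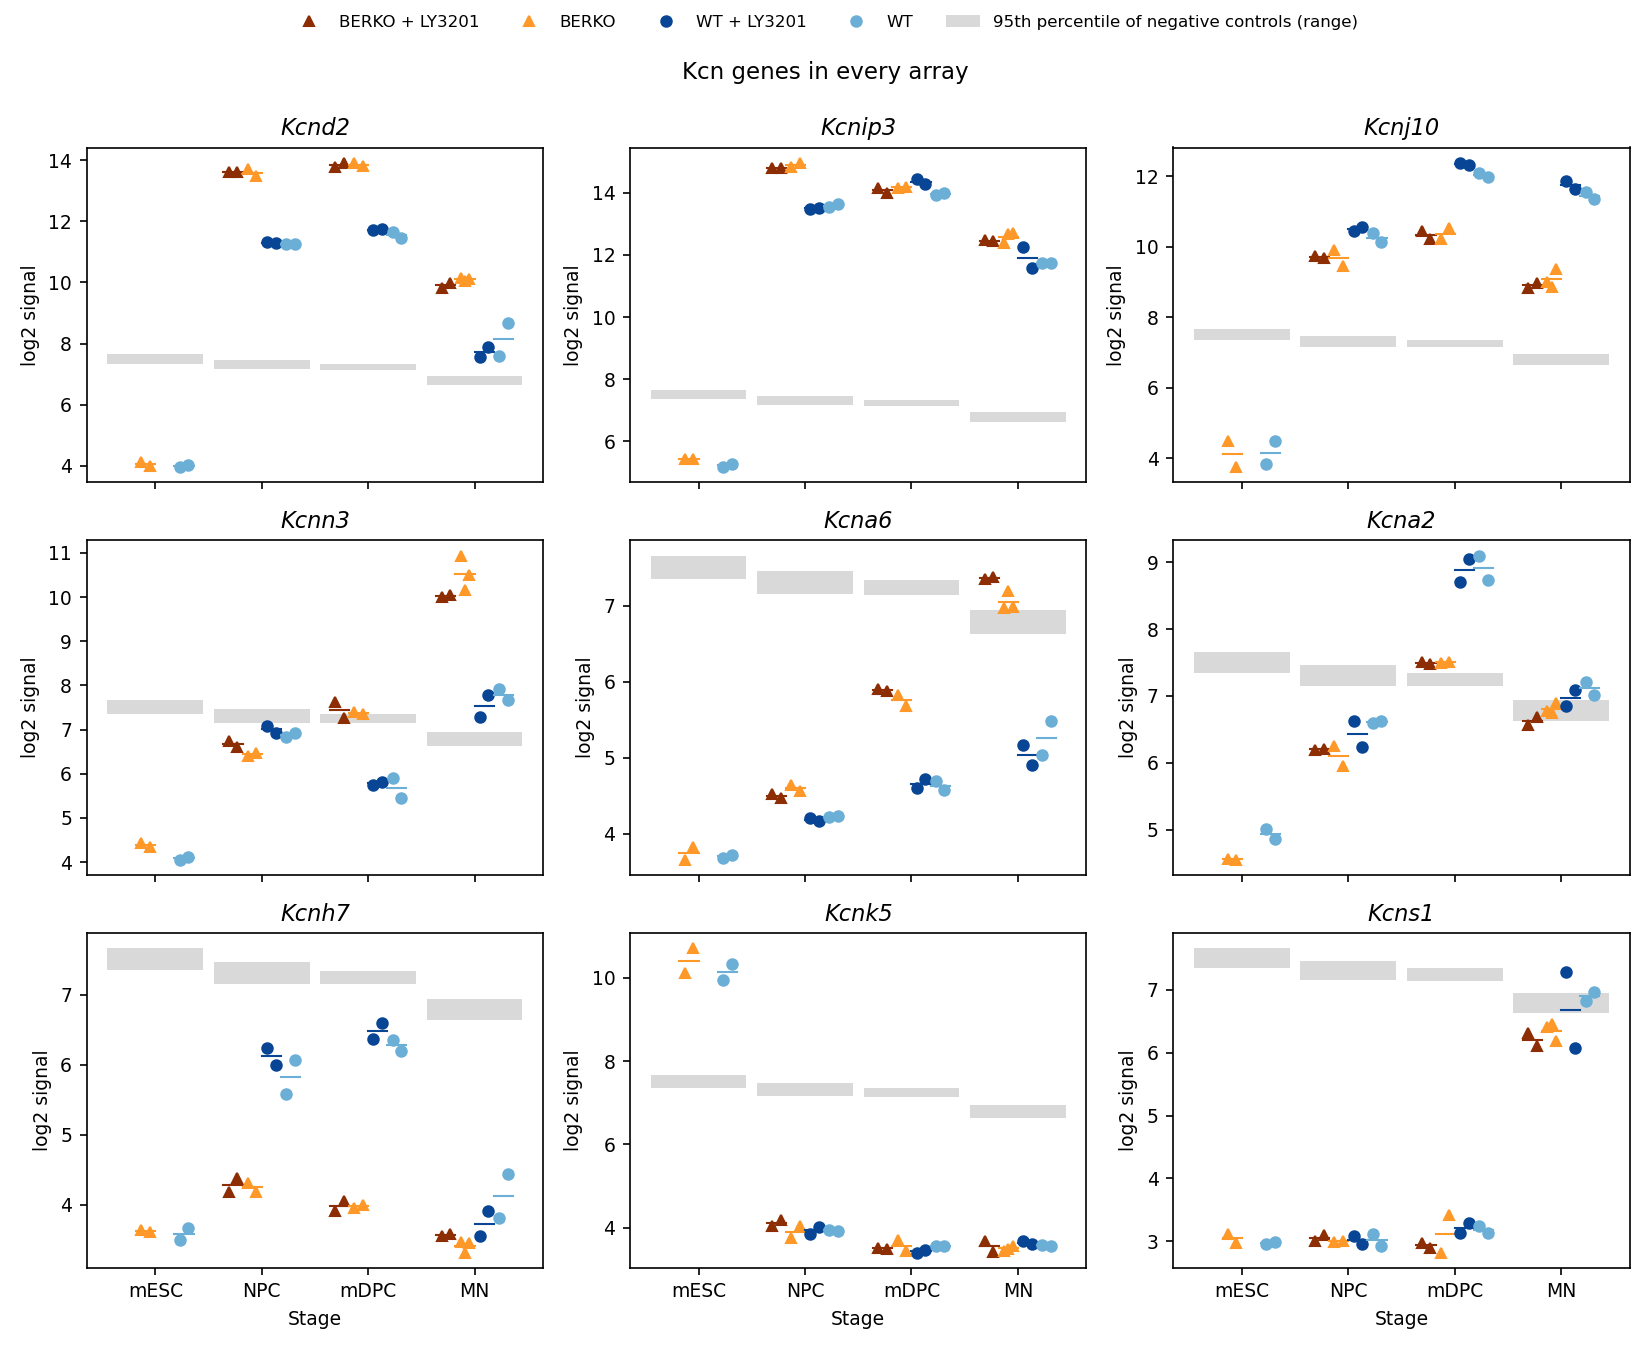
Log2 signal of 9 potassium channel genes in each of the 29 arrays by stage. Triangles are BERKO and circles WT arrays, dark symbols received LY3201, short lines are group means, and grey bands span the arrays' background lines. Kcnd2 lies about 2 log2 units higher in BERKO at all 3 neural stages, while Kcnj10 separates downward at mDPC and MN.

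From NPC to mDPC, 19 members rose and 6 fell in BERKO, and 13 rose and 8 fell in WT. The background shares were 16.5% rising and 18.9% falling in BERKO, and 14.6% and 15.8% in WT, and the members' medians were 0.12 and 0.11. Both genotypes shared 12 rises and 5 falls, again with no shared count over all genes. The largest rises in BERKO were of Kcnq3, Kcnn2 (SK2), Kcnk2 (the mechanosensitive leak channel TREK-1), Kcnj16 (Kir5.1, which pairs with Kir4.1 in glia) and Kcna2, by 2.24 ± 0.18, 2.07 ± 0.17, 1.84 ± 0.15, 1.81 ± 0.14 and 1.40 ± 0.14. In WT they were of Kcna2 (2.32 ± 0.14), Kcnj16 (2.21 ± 0.14), Kcnq3 (1.88 ± 0.18), Kcnh5 (1.82 ± 0.12) and Kcnj10 (1.77 ± 0.23). Kcnj16 measured 6.95 and 6.81 in mDPC BERKO and 7.46 and 7.28 in mDPC WT, against 5.19 and 4.96 in NPC BERKO and 5.27 and 5.04 in NPC WT; the stages did not overlap. Kcnmb4 fell by -2.49 ± 0.10 in BERKO and -1.38 ± 0.10 in WT, and Kcnd3 by -1.41 ± 0.14 and -0.83 ± 0.14, so both had their highest levels in NPC. Kcnn3 went opposite ways, with a rise of 0.93 ± 0.20 in BERKO and a fall of -1.21 ± 0.20 in WT (adjusted p = 0.000979 and 9.68e-05). Kcnd2 did not pass the test in either genotype (0.27 ± 0.21 in BERKO, 0.29 ± 0.21 in WT). Leaving out either of NPC BERKO replicate 2 or mDPC BERKO replicate 2 ended the BERKO call of Kcnj10 in this step (0.70 ± 0.23, adjusted p = 0.0228; 0.47 and 0.55 without them).

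From mDPC to MN, 14 members rose and 23 fell in BERKO, and 12 rose and 13 fell in WT. Of all genes, 20.1% rose and 30.8% fell in BERKO, and 18% rose and 24% fell in WT, with members' medians of -0.17 and -0.02. Both genotypes shared 9 rises and 12 falls, with no shared count over all genes. Kcnk2 fell by -1.07 ± 0.14 in BERKO and rose by 0.66 ± 0.15 in WT. Kcnd2 fell by -3.75 ± 0.19 in BERKO and -3.40 ± 0.21 in WT, and Kcnip3 by -1.59 ± 0.13 and -2.21 ± 0.15, and both stayed over the background line in every MN array. Kcnq3 and Kcnn2, highest at mDPC, also fell, by -2.59 ± 0.17 and -2.30 ± 0.16 in BERKO and by -1.46 ± 0.18 and -2.08 ± 0.17 in WT.

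Kcns1 and Kcnj8 belonged to the last stage. Kcns1, the silent modifier subunit Kv9.1, measured 6.41, 6.45 and 6.18 in MN BERKO and 6.83 and 6.97 in MN WT, against 2.82 to 3.42 in the 20 arrays before MN. Its rise was 3.22 ± 0.22 in BERKO and 3.72 ± 0.25 in WT (adjusted p = 3.71e-10 and 2.83e-10), although only 2 of the 9 MN arrays, both WT, exceeded the background line. Kcnj8, the Kir6.1 pore of vascular KATP channels, rose by 1.89 ± 0.36 in BERKO and 4.03 ± 0.40 in WT at MN, against levels of 3.21 to 3.97 before it. Abcc9, the sulfonylurea receptor that joins Kir6.1 in muscle, stayed between 3.23 and 3.56 in all arrays. Kcnn3 rose by 3.16 ± 0.18 in BERKO and 2.12 ± 0.20 in WT, and Kcnh5 (Kv10.2, of the ether-a-go-go family) by 1.10 ± 0.11 and 0.49 ± 0.12. The WT call of Kcnh5 was lost without MN WT replicate 2 (0.37, adjusted p = 0.0508).

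**Figure D3:**
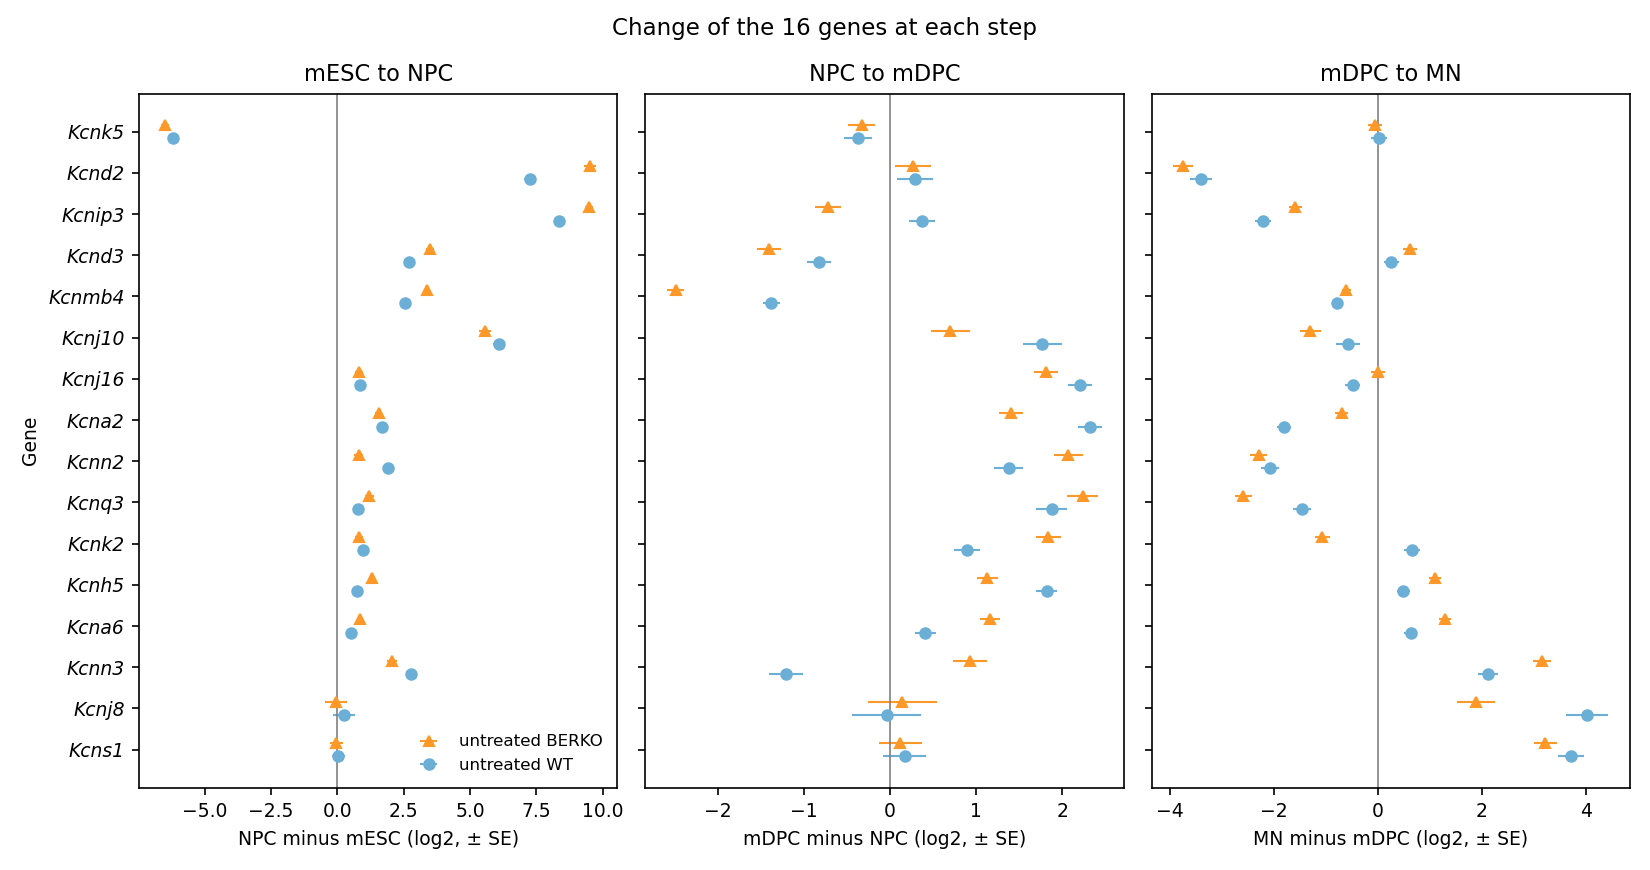
Change ± SE of the 16 genes above the background line at the 3 steps between untreated stages, BERKO (triangles) and WT (circles). The first panel spans a wider range than the others, and Kcnn3 at the second step and Kcnk2 at the third lie on opposite sides of 0 in the genotypes.

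The difference of a step between genotypes was called for 8 members from mESC to NPC, 9 from NPC to mDPC and 14 from mDPC to MN, against 9.6%, 8.68% and 12.5% of all genes, where members' shares were 12.5%, 14.1% and 21.9%. Their values, and the calls that were lost when single arrays were left out, stand in the closing section. Without mDPC WT replicate 1 the last count was 7 and without MN WT replicate 2 it was 6, and without NPC WT replicate 1 or NPC BERKO replicate 2 the first was 5.

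Genotype differences were few in stem cells and wider in the neural stages. Among mESC, 1 member was higher and 1 lower in BERKO, against 1.68% and 2.53% of all genes. Kcnd1 measured 5.44 and 5.44 in mESC BERKO against 6.12 and 6.26 in mESC WT, a difference of -0.75 ± 0.09 (adjusted p = 4.07e-05). Kcnk1 (TWIK-1) measured 6.01 and 5.86 in mESC BERKO against 5.28 and 5.16 in mESC WT (0.71 ± 0.17, adjusted p = 0.0191). Both genes lay under the background line, and the call of Kcnk1 was lost without mESC BERKO replicate 1 (0.64) or either WT array (0.77 without replicate 1, 0.65 without replicate 2).

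In untreated NPC, 9 members were higher and 7 lower in BERKO, against 10.6% and 5.08% of all genes. In untreated mDPC, 9 were higher and 5 lower, against 8.51% and 5.32%. In untreated MN, 10 were higher and 11 lower, against 13.5% and 7.31%, and in no called case did the arrays of the genotypes overlap. With so few arrays this adds little to a call: uncalled members such as Kcna2 and Kcns1 at MN did not overlap either. The members' medians were -0.03, 0 and -0.13 at NPC, mDPC and MN, beside 0.03, 0.02 and 0.01 over all genes. Voltage-gated subunits, 28 of the 64 members tested, made up 6 of the 9 higher and 5 of the 7 lower at NPC. They made up 5 of the 9 and 3 of the 5 at mDPC, and 7 of the 10 and 2 of the 11 at MN. Markers of several cell types moved between the genotypes at the same stages. Oligodendrocyte precursor markers were higher in BERKO NPC and BERKO mDPC for 4 of 6 genes, with means of 9.98 to 10.11 in untreated NPC BERKO and 8.7 to 8.85 in untreated NPC WT. Cell division markers were higher for 6 of 6 genes at NPC, lower for 4 of 6 at mDPC and higher for 5 of 6 at MN. Neuron markers were lower for 11 of 13 genes at MN. Mesenchymal and smooth muscle markers were lower for 6 of 9 genes at NPC, with means of 4.89 to 5 in untreated NPC BERKO and 6.55 to 6.56 in untreated NPC WT. The part of these cell types in the channel differences was not tested.

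Kcnd2, Kcnd3 and Kcnip3 stood higher in BERKO, while Kcnd1, the third Kv4 gene, stood lower at mESC and NPC. Kcnd2 measured 13.71 and 13.48 in NPC BERKO against 11.25 and 11.26 in NPC WT, 13.9 and 13.82 in mDPC BERKO against 11.65 and 11.44 in mDPC WT, and 10.16, 10.04 and 10.12 in MN BERKO against 7.6 and 8.69 in MN WT. The groups did not overlap at any neural stage, and all 25 neural arrays were over the background line. The differences were 2.34 ± 0.21, 2.31 ± 0.21 and 1.96 ± 0.19 at NPC, mDPC and MN (adjusted p = 2.12e-07, 1.55e-07 and 2.61e-07). In mESC, where the gene lay under the background line, the difference was 0.07 ± 0.21 and not called. Kcnip3 was higher in NPC BERKO by 1.31 ± 0.15 and in MN BERKO by 0.85 ± 0.13 (adjusted p = 3.23e-06 and 9.02e-05), while its mDPC difference of 0.23 ± 0.15 was not called. Kcnd3 followed the same stages, with differences of 0.86 ± 0.14 at NPC and 0.63 ± 0.13 at MN (adjusted p = 0.000223 and 0.00114) and an uncalled 0.28 ± 0.14 at mDPC. Kcnd1 was lower in NPC BERKO by -0.44 ± 0.09 (adjusted p = 0.00131) and was not called at mDPC (-0.18 ± 0.09) or MN (-0.15 ± 0.08). Of the other KChIP genes tested, Kcnip1 was lower in MN BERKO by -0.38 ± 0.11 (adjusted p = 0.0206), and Kcnip2 was called at no stage.

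Other partners of this channel were measured as well. Dpp6, an accessory protein of Kv4 channels, had 6.88 and 6.66 in NPC BERKO against 5.84 and 5.8 in NPC WT (0.95 ± 0.30, adjusted p = 0.0394). Dpp10, its close relative, was higher in NPC BERKO by 1.31 ± 0.32 and lower in MN BERKO by -1.44 ± 0.30 (adjusted p = 0.0084 and 0.00137), but stayed under the background line in all arrays. Of 13 channel partners tested, a list that also holds partners of other channels, 3 were higher and 0 lower at NPC. At mDPC 1 was higher and 0 lower, and at MN 1 was higher and 5 lower. Of all genes, 10.6% were higher and 5.08% lower at NPC, 8.51% and 5.32% at mDPC, and 13.5% and 7.31% at MN.

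The SK3 gene was higher in BERKO from mDPC on, and the Kv1.6 gene was higher at NPC as well. Kcnn3 measured 7.39 and 7.35 in mDPC BERKO against 5.9 and 5.44 in mDPC WT, and 10.94, 10.15 and 10.49 in MN BERKO against 7.91 and 7.66 in MN WT. The differences were 1.70 ± 0.20 and 2.74 ± 0.18 (adjusted p = 4.65e-06 and 1.49e-09), while at NPC the BERKO arrays were not called different (-0.45 ± 0.20, adjusted p = 0.158). Kcna6, which encodes Kv1.6, measured 5.83 and 5.68 in mDPC BERKO against 4.69 and 4.58 in mDPC WT, and 6.97, 7.19 and 6.99 in MN BERKO against 5.04 and 5.49 in MN WT. It differed by 0.37 ± 0.12 at NPC, 1.12 ± 0.12 at mDPC and 1.78 ± 0.11 at MN (adjusted p = 0.0362, 1.16e-06 and 3.83e-10). Kcna6 exceeded the background line in the MN BERKO arrays alone. Kcnq5 (Kv7.5) was higher in BERKO at all 3 stages, by 0.72 ± 0.12, 0.91 ± 0.12 and 0.82 ± 0.11, under the background line throughout.

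**Figure D4:**
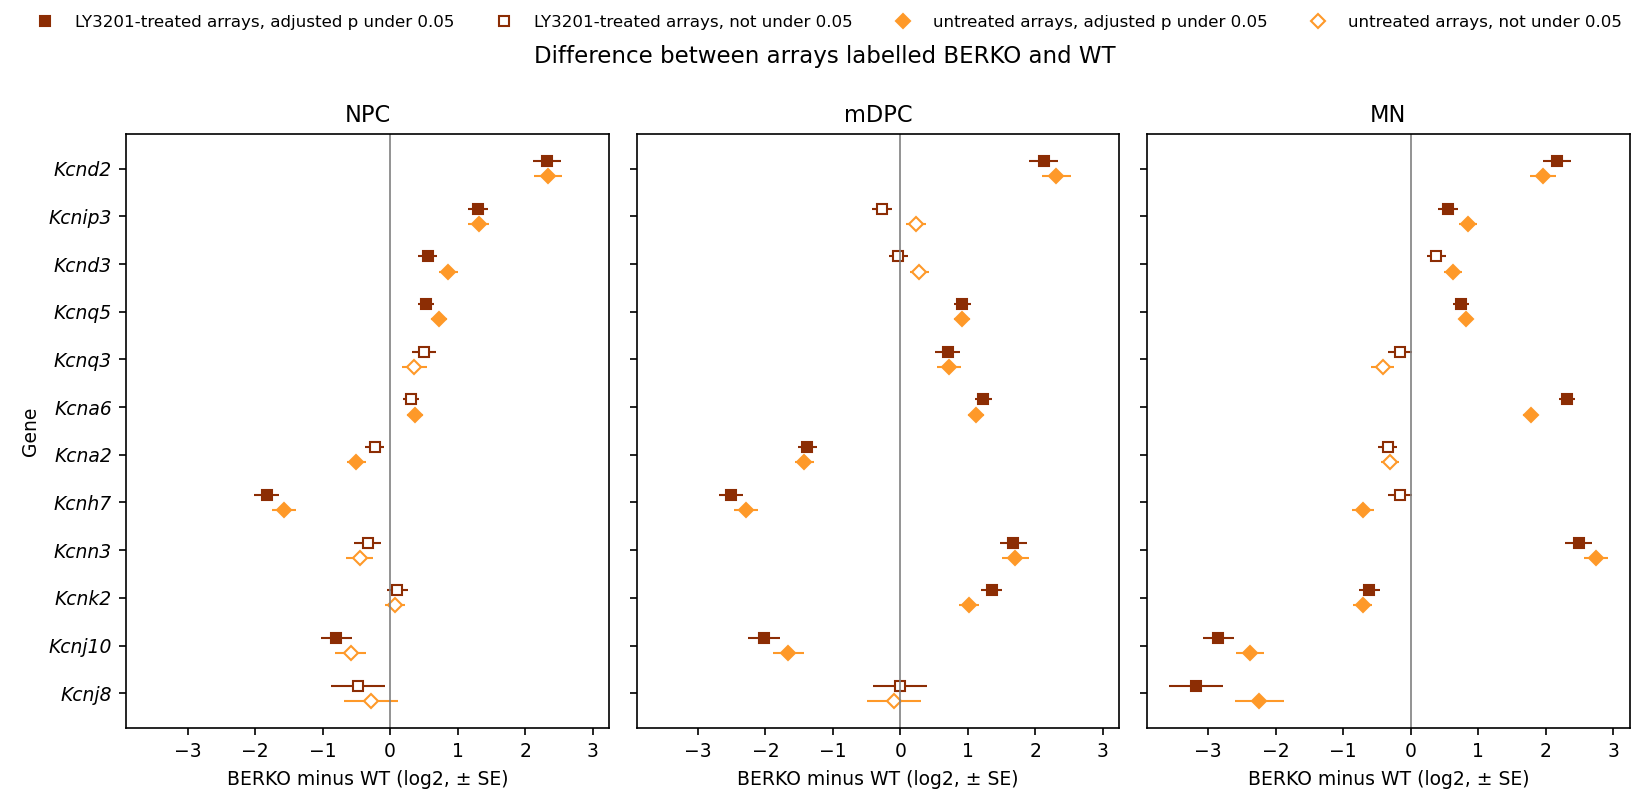
BERKO minus WT difference ± SE of 12 potassium channel genes at NPC, mDPC and MN, in LY3201-treated arrays (squares) and in untreated arrays (diamonds); filled symbols have an adjusted p under 0.05. Treated and untreated estimates come from different arrays and lie close together for most genes, with Kcnd2 near 2 in all 6 comparisons.

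Kir4.1, Kv1.2 and Kv11.3 genes stood lower in BERKO. Kcnj10 measured 10.22 and 10.52 in mDPC BERKO against 12.08 and 11.98 in mDPC WT, and 9, 8.85 and 9.37 in MN BERKO against 11.56 and 11.34 in MN WT. The groups were apart by -1.66 ± 0.23 at mDPC and -2.38 ± 0.21 at MN (adjusted p = 3.58e-05 and 7.55e-08); at NPC the difference of -0.58 ± 0.23 was not called. The astrocyte marker mean was 10.51 to 10.54 in untreated MN BERKO and 10.05 to 10.18 in untreated MN WT, with 6 of 9 markers higher and 1 lower. The 1 lower marker was Slc1a2, the glutamate transporter GLT-1 of astrocytes (-1.87 ± 0.12, adjusted p = 6.82e-10). Aqp4, the water channel of astrocyte endfeet, was higher by 0.49 ± 0.15 (adjusted p = 0.0204). The part of astrocyte content in the Kcnj10 difference was not tested. Kcnj16, the partner subunit of Kir4.1, differed by -0.49 ± 0.14 at mDPC (adjusted p = 0.0264) and by 0.00 ± 0.13 at MN; its mDPC call was lost without mDPC WT replicate 1 (-0.40) or either mDPC BERKO array (-0.56 and -0.42).

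Kcna2 measured 7.5 and 7.51 in mDPC BERKO against 9.1 and 8.74 in mDPC WT (-1.42 ± 0.14, adjusted p = 6.07e-07), and at NPC it was lower by -0.50 ± 0.14 with a call that was lost without NPC BERKO replicate 2 (-0.35) or either NPC WT array (-0.52 and -0.48). Kcnh7, the Kv11.3 subunit of the ERG family, measured 4.32 and 4.18 in NPC BERKO against 5.58 and 6.07 in NPC WT, and 3.96 and 4 in mDPC BERKO against 6.36 and 6.19 in mDPC WT. Its differences were -1.57 ± 0.18 at NPC, -2.29 ± 0.18 at mDPC and -0.71 ± 0.16 at MN (adjusted p = 3.62e-06, 1.85e-08 and 0.00306), all under the background line. Kcnn2 was lower in NPC BERKO by -0.93 ± 0.17 (adjusted p = 0.000789). Kcnk2 changed side: it measured 7.73 and 7.95 in mDPC BERKO against 6.8 and 6.84 in mDPC WT, and 7.05, 6.46 and 6.79 in MN BERKO against 7.34 and 7.6 in MN WT. These differences were 1.02 ± 0.15 and -0.71 ± 0.14 (adjusted p = 9.58e-05 and 0.00104).

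Kcnj8 and Kcnk9 were lower in MN BERKO, and the WT arrays differed widely among themselves. Kcnj8 measured 4.9, 6.08 and 5.34 in MN BERKO against 6.79 and 8.57 in MN WT (-2.24 ± 0.36, adjusted p = 0.000129). Mesenchymal and smooth muscle markers averaged 4.82 to 5 in untreated MN BERKO and 6.67 to 6.7 in untreated MN WT, and 7 of the 9 were lower in BERKO; Myh11 of that list lay between 3.84 and 4 in the MN arrays. Kcnk9, the acid-sensitive leak channel TASK-3, measured 3.12, 3.19 and 3.42 in MN BERKO against 3.98 and 6.17 in MN WT (-1.84 ± 0.43, adjusted p = 0.00388). The WT array with 6.17 also had the highest neuron marker mean, 8.83, against 7.34 in the other untreated WT array and 6.82 to 7.05 in untreated MN BERKO. Without MN WT replicate 2 the Kcnk9 difference was -0.74 (adjusted p = 0.2) and that of Kcnh7 was -0.40 (adjusted p = 0.141), both no longer called. The part of mesenchymal cells and neurons in these values was not tested.

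**Figure D5:**
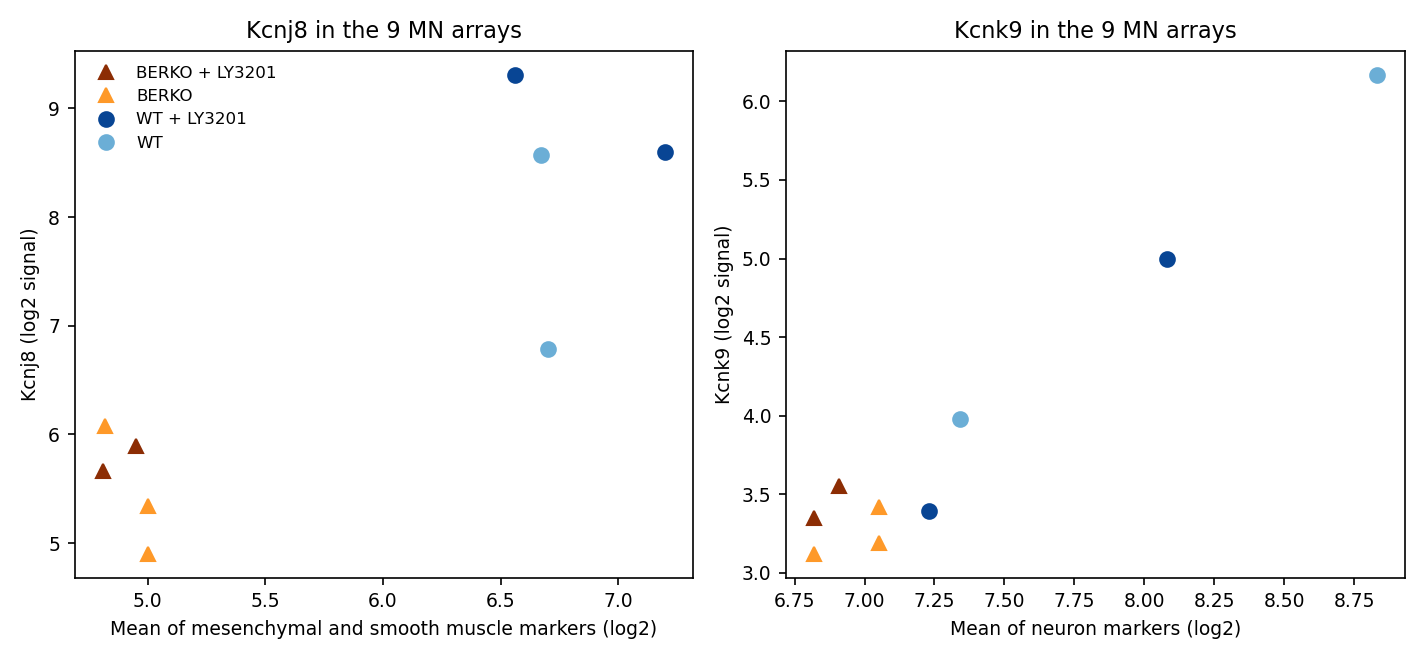
Log2 signal of Kcnj8 and Kcnk9 in the 9 MN arrays against the mean log2 level of mesenchymal and smooth muscle markers and of neuron markers; triangles are BERKO, circles WT, dark symbols LY3201. The 4 WT arrays lie at higher mesenchymal marker means than the 5 BERKO arrays, and Kcnk9 exceeds 4.5 in the 2 WT arrays whose neuron marker means are above 8.

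The genotype comparison was repeated in the arrays that received LY3201, which are different arrays. In NPC, 8 members were higher and 5 lower in BERKO (4.56% and 5.81% of all genes), in mDPC 9 were higher and 5 lower (7.23% and 8.1%), and in MN 9 were higher and 3 lower (9.01% and 10.6%). At NPC, 8 members were higher with and without LY3201, which is 100% of the treated and 88.9% of the untreated calls; 3 were lower in both (60% and 42.9%). At mDPC, 7 were higher in both (77.8% of each list) and 4 lower in both (80% of each). At MN 7 were higher in both (77.8% of the treated and 70% of the untreated calls) and 3 lower in both (100% and 27.3%). The same overlap was not computed over all genes, so these shares are not read as particular to potassium channel genes. Kcnd2 and Kcnq5 were higher in BERKO in all 6 of these comparisons, and no member was lower in all 6; the Kcnq5 call in treated NPC (0.53) was lost without BERKO replicate 1 (0.44) or WT replicate 1 (0.43). With LY3201, Kcnd2 measured 13.63 and 13.62 in NPC BERKO against 11.32 and 11.29 in NPC WT, 13.78 and 13.92 in mDPC BERKO against 11.72 and 11.74 in mDPC WT, and 9.82 and 9.99 in MN BERKO against 7.56 and 7.9 in MN WT. Kcnj10 differed with LY3201 by -0.80 ± 0.23 at NPC, -2.02 ± 0.23 at mDPC and -2.85 ± 0.23 at MN (adjusted p = 0.031, 2.92e-06 and 3.38e-08), and the NPC call was lost without any 1 of the 4 arrays (-0.86 to -0.74). Kcnj8 measured 5.89 and 5.66 in LY3201-treated MN BERKO against 9.31 and 8.6 in LY3201-treated MN WT (-3.18 ± 0.40, adjusted p = 9.82e-06). Kcnk9 was not called in the treated MN arrays (-0.75 ± 0.47). The count of 13 at LY3201-treated NPC was 6 without BERKO replicate 1, 8 without BERKO replicate 2 and 7 without WT replicate 1.

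LY3201 gave 1 call among potassium channel genes over the 6 pairs of groups. No member was called in NPC BERKO, NPC WT, mDPC BERKO, mDPC WT or MN WT by limma, where 0, 0.00453, 0.113, 0.0635 and 1.83% of all genes were called. At an unadjusted p under 0.05 there were 3, 3, 2, 6 and 9 members. The share of all genes at an unadjusted p under 0.05 was not computed, here or below. The unadjusted counts are therefore not to be set against the shares called, which use adjusted p. In MN BERKO 1 member of 7 with an unadjusted p under 0.05 was called, Kcnab1, a Kv beta subunit, at -0.33 ± 0.07 (adjusted p = 0.0472), where 0.344% of all genes were called; it lay under the background line, and the call was lost without any 1 of 4 of the 5 arrays (adjusted p = 0.149 to 0.303). The widest estimates were in MN WT, at 1.27 for Kcnj8 and -0.88 for Kcnk9, neither called. Kcnn3 had the widest estimate in MN BERKO (-0.51, not called), where it measured 10 and 10.05 with LY3201 and 10.94, 10.15 and 10.49 without. For the 16 genes above the background line in at least 1 array of any stage, the 95% interval of an LY3201 effect was examined. It reached a median of 0.33 to either side in 5 of the comparisons and 0.3 in MN BERKO. Outside MN, all effects of these 16 genes lay between -0.34 and 0.41. Some of the 16, such as Kcns1 and Kcnj8, lay under the line in all arrays before MN. For those, a small effect there is one of measured signal and does not bound a change in expression. The count in MN WT changed with each of 3 arrays: without MN WT replicate 1, 6 members were called lower with LY3201, without MN WT replicate 2, 1 was called higher, and without LY3201-treated replicate 1, 1 was called lower. The difference of the LY3201 effects between BERKO and WT was called for 0 members at NPC, mDPC and MN (0.499%, 0% and 0.63% of all genes), with 7, 5 and 6 members at an unadjusted p under 0.05; the MN count was 4 without MN WT replicate 1 and 1 without MN BERKO replicate 2.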

How the data were processed

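Total RNA, 150 ng a sample per the labels' protocols, was hybridised to 29 Clariom D arrays in 14 groups of 2 or 3. Per the labels, the authors deposited log2 values made with SST-RMA in Affymetrix Expression Console 1.4. The submitters' processing notes further list RMA and Transcriptome Analysis Console with no version. The genome build of the clusters is not given in the sources used here.

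The table held 65956 transcript clusters, 30604 of them with 1 gene symbol and 2146 with several, by GEO's platform annotation. A gene entered the tests if 2 or more arrays placed it over their own median cluster. limma 3.58.1 (R 4.3.3) fitted 14 group means with 15 residual and 3.3 prior degrees of freedom and 25 contrasts, each 2-sided, and p-values were adjusted by Benjamini and Hochberg's method across 22063 genes. The model was tested on simulated data. Named were, per comparison, the largest called rises and falls without overlap (up to 6 each way, 10 for steps) and a short set of named channels. The members, gene lists and naming rule were chosen with earlier results of these data known. Alternatives were other filters, quantile normalization, a trended robust prior, the compared groups alone, same-number arrays averaged and each array left out.

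Values below the negative controls' 95th percentile may understate a difference. Where only 1 group was over that line in all its arrays, "at least" gives its mean over the higher of the line and the other group's signal. Promoter windows are RefSeq's on GRCm38.p6 and were matched by symbol.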

Additional observations from a re-analysis of the deposited data

Results flagged for a closer look

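The results here were picked out because the change over a step, in untreated arrays, differed between BERKO and WT when the difference itself was tested in the limma model (adjusted p under 0.05). Each value is the BERKO step minus the WT step on the log2 scale, and neighbouring steps have a stage, and its arrays, in common. No group held 4 arrays, so no single array was tested against its group.

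From mESC to NPC, Kcnd2 rose further in BERKO by 2.27, the KChIP3 gene Kcnip3 by 1.11 and Kcnd3 by 0.79. The Kv4 gene Kcnd1 and the KChIP genes Kcnip1 and Kcnip2 were not called (0.31, 0.10 and 0.01). The BK subunit gene Kcnmb4 differed by 0.83, Kcnq5 by 0.6 and Kcnh5 by 0.56. The step of Kcnh7 was smaller in BERKO (-1.61), as was that of the SK2 gene Kcnn2 (-1.12). The calls of Kcnd3, Kcnh5 and Kcnq5 were lost without any 1 of 4, 5 and 6 arrays, with values down to 0.57, 0.43 and 0.47.

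From NPC to mDPC, Kcnn3 differed most (2.15), since it rose in BERKO and fell in WT. Kcnk2 differed by 0.95 and Kcna6 by 0.74. The steps of Kcnmb4 (-1.11), Kcnip3 (-1.08), Kcnj10 (-1.07), Kcna2 (-0.92), Kcnh5 (-0.7) and Kcnh2 (-0.49), an ERG channel, were lower in BERKO. For Kcnip3, Kcnmb4 and Kcnh5 the sign is opposite to that of the step before. The Kcnj10 call was lost without any 1 of 7 arrays, at adjusted p between 0.0538 and 0.201. That of Kcnh2 was lost without any 1 of 3 arrays (-0.45 to -0.39) and that of Kcnh5 without either of 2 (-0.62 and -0.61).

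From mDPC to MN, Kcnh7 differed by 1.58, Kcna2 by 1.11, Kcnn3 by 1.04, Kcna6 by 0.67, and Kcnip3 and Kcnh5 by 0.62 each. Kcnj8 (-2.14), Kcnk9 (-2.08), Kcnk2 (-1.73), Kcnq3 (-1.13), Kcnj3 (-0.61), the GIRK1 gene, and Kcnv1 (-0.61), a silent Kv8 subunit gene, went the other way. The 2 other members called in this step, Kcna1 (0.59) and Kcnh2 (0.39), were smaller, and Kcnh2 is named here after its value was seen. Calls were lost without any 1 of 8 arrays for Kcnip3 (0.56 to 0.65), 7 for Kcnk9, 6 for Kcnj3 (-0.64 to -0.47), 3 each for Kcna1, Kcnh5 (0.50 to 0.59) and Kcnv1 (-0.59 to -0.46), 2 for Kcnn3 (0.81 and 0.91), and 1 each for Kcna6 (0.44) and Kcnj8. Without MN WT replicate 2, whose neuron marker mean was the highest of all arrays, Kcnj8 differed by -1.25 and Kcnk9 by -0.99, neither called.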

How the results depend on the processing

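Of 434 values of named genes per setting, 431 kept their direction and call under a trended robust prior, 426 without a filter, 420 with quantile normalization and 388 of 434 with the compared groups alone; 346 of 349 did so with the stricter filter at the 75th percentile and 93 of 102 with same-number arrays averaged. With single arrays left out, 2034 of 2200 did so, 153 lost their call and 13 gained one. No called value changed sign in any setting run, and taking the lowest-mean cluster changed nothing because each gene has 1. Counts moved by over 1.5 times as follows. Same-number arrays averaged gave 8 in place of 13 for BERKO minus WT at LY3201-treated NPC and 1 in place of 2 at mESC. The stricter filter, which tests fewer genes, gave 12 in place of 21 for BERKO minus WT at MN, 19 for mDPC to MN and 19 for mESC to NPC in BERKO (37 and 31), 18 for mESC to NPC in WT (31) and 16 for NPC to mDPC in BERKO (25). The compared groups alone, with fewer arrays for the spread, gave 10 for BERKO minus WT at MN, 0 at mESC and 6 in place of 14 for the difference of the mDPC to MN steps. For LY3201 in MN BERKO the 1 call was 0 without a filter, with the stricter filter, with quantile normalization, with the trended robust prior and with the compared groups alone; in MN WT, quantile normalization gave 1. With single arrays left out, the counts ran from 6 to 9 at LY3201-treated NPC, 1 to 2 at mESC, 0 to 1 for LY3201 in MN BERKO, 0 to 6 for LY3201 in MN WT and 0 to 4 for the difference of the LY3201 effects at MN. They ran from 6 to 18 for the difference of the mDPC to MN steps and 5 to 7 for that of the mESC to NPC steps. Apart from the construction named for the stricter filter and the compared groups, the cause was not tested. Signals near the negative controls limit the genes under the background line. No paired analysis was possible because the titles of compared groups share fewer than 2 sample numbers.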

Other observations

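Genes that work beside the channels showed differences between the genotypes as well. Atp1b1, a beta subunit of the sodium-potassium pump that restores the potassium gradient, measured 12.75 and 12.42 in untreated mDPC BERKO against 9.59 and 9.18 in untreated mDPC WT (3.20 ± 0.15, adjusted p = 2.8e-11 by limma). It was higher by 1.83 ± 0.15 at NPC and 1.75 ± 0.14 at MN. Fxyd1, a regulator of the pump also called phospholemman, measured 11.78, 11.92 and 12.22 in untreated MN BERKO against 8.09 and 7.77 in untreated MN WT (4.04 ± 0.15, adjusted p = 3.19e-13). With LY3201 the MN difference of Fxyd1 was 3.47 ± 0.16. Of 7 pump genes tested, 2 were higher and 0 lower at NPC, 2 and 0 at mDPC, and 3 and 1 at MN. The shares over all genes were 10.6% and 5.08%, 8.51% and 5.32%, and 13.5% and 7.31% at these stages.

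Slc12a2, the NKCC1 cotransporter that brings in potassium with sodium and chloride, measured 12.59, 13.22 and 12.67 in untreated MN BERKO against 11.21 and 11.24 in untreated MN WT (1.60 ± 0.18, adjusted p = 1.69e-06). Slc12a5, the neuronal potassium-chloride exporter KCC2, stayed under the background line, with 5.36 as its highest value in the MN WT array that also had the highest neuron marker mean. The HCN channel genes tested lay between 3.41 and 4.71, and Hcn2 alone was called between the genotypes, at MN (-0.29 ± 0.09, adjusted p = 0.0333).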
